A study of Mus musculus with 6 samples.

Results

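The complement genes described here were C3, C4b, Cfb, C2, Cfi, C1s1, C1ra, Serping1 and Cd55, 9 of the 55421 genes in the count tables, taken by their symbols and not by their values. They were measured by RNA sequencing of pancreatic islets from wild-type C57BL/6 mice, in 3 libraries of a vehicle group and 3 libraries of a group given the ligand insB:9-23. The name stands for an insulin B chain peptide known as a target of autoreactive lymphocytes. Not given in the labels are the animals' age and number, the dose, the route, the time of exposure, and whether animals or isolated islets received the ligand. Since no label says that the libraries came from separate animals or cultures, a p-value here covers the variation among 6 libraries, part or all of which may be technical. The series was titled as a search for islet targets of the ligand.

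Complement is a cascade of plasma and cell-surface proteins. In the classical pathway the recognition protein C1q activates the proteases C1r and C1s, which cleave C4 and C2 to form an enzyme that splits C3. In the alternative pathway factor B joins activated C3 in a second C3-splitting enzyme. Among the inhibitors, C1 inhibitor holds the classical pathway in check, and factor I and CD55 hold both pathways in check. The liver makes most circulating complement, and macrophages, fibroblasts and epithelial cells, including those of the islet, make it locally.

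Total counts lay between 52052808 and 58880189 per library, and levels are given in CPM, counts scaled to the TMM-normalised library size. The islet hormone gene Ins2 stood between 60090 and 78010 CPM in the 6 libraries, whereas Mafa, a beta cell transcription factor, was listed at 0 in all of them. Zeros also came and went between libraries of a group. Cebpd, a transcription factor gene, was at 0 in vehicle replicate 2 and insB:9-23 replicate 1 and at 3.48 to 6.42 CPM in the other 4 libraries, and Ifit1, an interferon-induced gene, was at 0 in 3 libraries and at 10.8 to 15.6 CPM in the others. A 0 is therefore given here as listed, and the part of read assignment in it was not tested. The libraries also held much exocrine RNA, with 21 acinar markers summing to 144600 to 177400 CPM in the vehicle group and to 194500, 164600 and 326700 CPM in insB:9-23 replicates 1 to 3. In insB:9-23 replicate 2 the 7 B and plasma cell markers summed to 68.4 CPM, against 6.96 to 13.7 CPM in the other 5 libraries. The 9 T and NK cell markers summed to 19.4 CPM in that library and to 2.49 to 4.82 CPM elsewhere. In bulk RNA a change in the number of cells and a change in RNA per cell cannot be told apart.

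No complement member passed the test between the groups. With edgeR's quasi-likelihood test and an adjusted p threshold of 0.05, 0 of the 9 members were called, against 0.0823% of the 17016 genes tested (0.0294% higher and 0.0529% lower in the insB:9-23 group). All 9 members had entered that test. At an unadjusted p below 0.05, 1 member (C4b) was higher and 0 were lower, where the shares over all genes were 5.55% in either direction, 2.74% higher and 2.81% lower. DESeq2 called 1 member, again C4b, against 0.685% of 16927 genes. The log2 fold change (insB:9-23 against vehicle) was above 0 for 7 of 9 members and for 51.5% of all genes, and its median was 0.45 over the members and 0.01 over all genes tested.

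The 3 insB:9-23 libraries lay far from each other for most members. Replicate 2 stood above the whole vehicle range for 9 of 9 members, a position held by 28.3% of all genes tested. Replicate 3 stood below the vehicle range for 6 of 9 members, against 28.7% of all genes. These 6 members were C3, Cfb, C2, C1ra, Serping1 and Cd55, and each of them was also highest in replicate 2. For Cfb and C2 the values in replicate 3 depend on the overlapping gene Gm20547, described with the gene positions. That order, highest of all 6 libraries in replicate 2 and lowest in replicate 3, was held by 4.67% of all genes. Replicate 1 stood within the vehicle range for 5 members, above it for C4b and C1s1, and below it for Cfi and Serping1. The SD of log2 CPM was larger in the insB:9-23 group for 9 of 9 members as counted, with medians of 0.16 in vehicle and 0.86 in insB:9-23. Over all genes it was larger in that group for 56% of them, with medians of 0.21 and 0.24. These counts were made after the values were seen and describe 6 libraries.

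**Figure D1:**
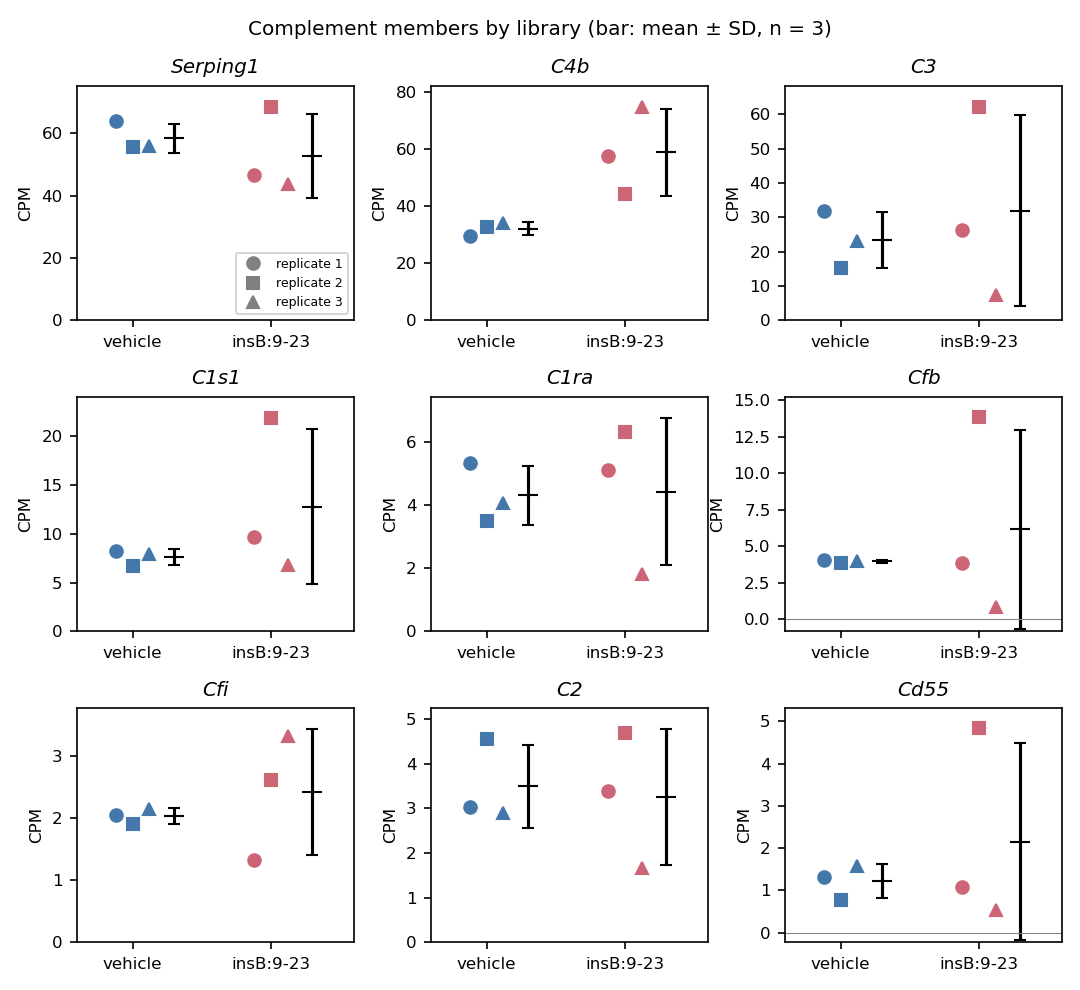
Each panel plots the CPM (y axis) of 1 complement member in the 3 vehicle and 3 insB:9-23 libraries (x axis), with the mean ± SD of each group (n = 3) as a bar and the replicate number as the symbol. The square of insB:9-23 replicate 2 lies above every vehicle point in all 9 panels, while C4b is the member whose groups do not overlap.

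C3, the central protein of the cascade, was at 31.8, 15.4 and 23.2 CPM in vehicle replicates 1 to 3 and at 26.4, 62.0 and 7.40 CPM in insB:9-23 replicates 1 to 3. The group means were 23.4 ± 8.24 and 31.9 ± 27.7 CPM (SD, n = 3 each). Its treated libraries thus included both the highest and the lowest value of the series, which differed 8.38-fold. The log2 fold change was 0.45 ± 0.74 (SE; edgeR adjusted p = 0.945). Without insB:9-23 replicate 2 it was -0.47 ± 0.63 (SE; edgeR adjusted p = 0.928), and without replicate 3 it was 0.92 ± 0.48 (SE; edgeR adjusted p = 0.943).

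Cfb, encoding factor B, the protease partner of C3 in the alternative pathway, had the widest range of the members as counted, 17.1-fold. It was at 4.03, 3.85 and 4.02 CPM in the vehicle libraries and at 3.87, 13.8 and 0.807 CPM in the insB:9-23 libraries. The vehicle libraries nearly coincided, and insB:9-23 replicate 1 stood among them, whereas replicates 2 and 3 lay 3.48 and 0.203 times as high as the vehicle mean. In counts the 3 treated libraries held 227, 778 and 37 reads. In replicate 3 alone a further 121 reads were assigned to Gm20547, a read-through gene over the same exons. With them Cfb stood at 3.45 CPM there, 0.869 times the vehicle mean, and its range was 4.01-fold, narrower than those of Cd55 (8.86-fold) and C3 (8.38-fold). The log2 fold change of 0.64 ± 0.91 (SE; edgeR adjusted p = 0.938) became -0.76 ± 0.67 without replicate 2, 1.16 ± 0.53 without replicate 3, and 0.83 ± 0.57 with the reads of Gm20547 added.

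The classical pathway proteases C1ra and C1s1 act as a pair and lie next to each other on chromosome 6. At the scaling used they parted in insB:9-23 replicate 3. C1ra was at 5.34, 3.50 and 4.08 CPM in vehicle and at 5.11, 6.32 and 1.83 CPM after insB:9-23, with means of 4.31 ± 0.944 and 4.42 ± 2.32 CPM (SD, n = 3 each). Its groups overlapped (log2 fold change 0.04 ± 0.46, SE; edgeR adjusted p = 0.993). C1s1 was at 8.21, 6.70 and 7.93 CPM in vehicle and at 9.70, 21.8 and 6.83 CPM after insB:9-23. In replicate 3 it stood within the vehicle range, and C1ra stood below its own. The place of C1s1 there depends on the scaling, since replicate 3 had a TMM factor of 0.806, which raises its CPM. C1s1 had 313 counts in replicate 3 and 419 to 519 in the vehicle libraries. Total counts were 56868559 in replicate 3 and 52052808 to 58880189 in vehicle. The log2 fold change of C1s1 was 0.75 ± 0.44 (SE; edgeR adjusted p = 0.881), and 0.12 ± 0.21 without replicate 2.

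Serping1 encodes C1 inhibitor, which inactivates C1r and C1s. It was at 63.7, 55.5 and 56.0 CPM in vehicle and at 46.5, 68.2 and 43.6 CPM after insB:9-23, so replicates 1 and 3 lay below every vehicle library and replicate 2 above them. The means were 58.4 ± 4.63 and 52.8 ± 13.4 CPM (SD, n = 3 each), with a log2 fold change of -0.15 ± 0.19 (SE; edgeR adjusted p = 0.931). Without replicate 2 it was -0.37 ± 0.10 (SE; edgeR adjusted p = 0.721).

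C4b differed from the other members in its pattern over the libraries. It encodes C4, which C1s cleaves and which forms the classical C3-splitting enzyme with C2. It was at 29.6, 32.8 and 34.1 CPM in the vehicle libraries and at 57.7, 44.2 and 74.7 CPM in the insB:9-23 libraries, with means of 32.1 ± 2.32 and 58.9 ± 15.2 CPM (SD, n = 3 each). All 3 treated libraries stood above all 3 vehicle libraries, and replicate 3, lowest for 6 other members, was the highest for C4b. In counts C4b had 3387 in replicate 1 and 3421 in replicate 3, of totals of 58445046 and 56868559. The margin of replicate 3 over replicate 1 thus depends on the scaling, by a TMM factor of 0.806 in replicate 3. Among the members 1 of 9 had treated values wholly above and 0 wholly below the vehicle values, where 6.44% of all genes did so above and 7.03% below. The log2 fold change was 0.87 ± 0.20 (SE; edgeR adjusted p = 0.803; DESeq2 adjusted p = 0.0184). Over the 21 alternatives the adjusted p lay between 0.0184 and 0.993, and DESeq2 was the only one of them to call it. Without insB:9-23 replicate 2 the log2 fold change was 1.04 ± 0.14 (SE; edgeR adjusted p = 0.223), and without replicate 3 it was 0.67 ± 0.15 (SE; edgeR adjusted p = 0.721). With library totals alone it was 0.69 ± 0.15 (SE; edgeR adjusted p = 0.633). The summed acinar markers were likewise highest in replicate 3, and with their level as a covariate the log2 fold change of C4b was 0.54 ± 0.11 (SE; edgeR adjusted p = 0.709). The same covariate moved most other members up: C3 to 1.26 ± 0.35, Cfb to 1.43 ± 0.45, C1s1 to 1.23 ± 0.31, C1ra to 0.67 ± 0.23 and Cd55 to 1.45 ± 0.65 (SE; edgeR adjusted p = 0.94 for each of these 5). The median over the members was then 0.67, with 8 of 9 above 0 and 0 called. That fit leaves 3 residual degrees of freedom, and replicate 3 sets most of the covariate's range.

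C2, which encodes the protease that joins C4b, was at 3.02, 4.56 and 2.90 CPM in vehicle and at 3.39, 4.69 and 1.66 CPM after insB:9-23. Replicate 2 stood just above the vehicle range and replicate 3 below it. The log2 fold change was -0.10 ± 0.41 (SE; edgeR adjusted p = 0.981), and 0.21 ± 0.30 without replicate 3. With the reads of Gm20547 given to C2 instead, replicate 3 stood at 4.30 CPM, within the vehicle range, and the log2 fold change was 0.24 ± 0.25 (SE; edgeR adjusted p = 0.914).

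Of the regulators, Cd55 encodes the membrane protein that speeds the decay of C3-splitting enzymes. It was the least abundant member per length, at 1.33, 0.767 and 1.57 CPM in vehicle and at 1.09, 4.83 and 0.546 CPM after insB:9-23 (25 to 272 counts per library). Its treated libraries spanned the vehicle range on both sides, and the log2 fold change of 0.82 ± 0.83 (SE; edgeR adjusted p = 0.911) was -0.57 ± 0.50 without replicate 2. Cfi encodes factor I, the protease that inactivates C3b and C4b. It was at 2.06, 1.90 and 2.15 CPM in vehicle and at 1.33, 2.61 and 3.32 CPM after insB:9-23. At this scaling replicate 1 was the low library and replicate 3 the high one. In counts Cfi had 147 in replicate 2 and 152 in replicate 3, of totals of 53805531 and 56868559. The place of replicate 3 above replicate 2 thus depends on the scaling. The log2 fold change of Cfi was 0.25 ± 0.36 (SE; edgeR adjusted p = 0.938). It was -0.04 ± 0.35 without replicate 3 and 0.06 ± 0.34 with library totals alone.

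**Figure D2:**
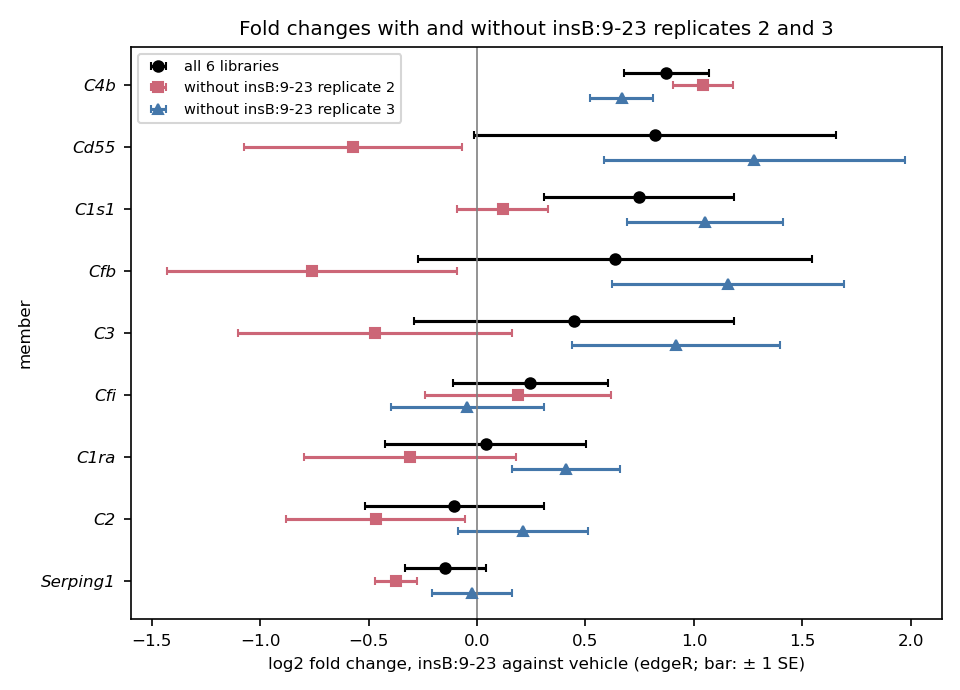
The x axis gives the edgeR log2 fold change of insB:9-23 against vehicle with its SE (bars) for each member (y axis), from all 6 libraries (circles), without insB:9-23 replicate 2 (squares) and without insB:9-23 replicate 3 (triangles). Without replicate 2, the values of C3, Cfb, Cd55 and C1ra lie below 0, while C4b stays above 0 in each fit shown.

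The members' median log2 fold change was -0.37 without insB:9-23 replicate 2, with 3 of 9 members above 0, and 0.67 without replicate 3, with 7 of 9 above 0. With replicate 1 alone as the treated library it was -0.04. In each of these fits 0 members were called.

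Marker lists of other cells moved with these libraries. In insB:9-23 replicate 2, 7 of 7 B and plasma cell markers and 9 of 9 T and NK cell markers were at their highest, and the summed lists stood 5.9 and 4.56 times as high as the vehicle mean. In replicate 3 the same sums were 0.6 and 0.583 times the vehicle mean. The 14 macrophage and dendritic cell markers summed to 254 to 313 CPM in vehicle and to 279, 415 and 183 CPM in insB:9-23 replicates 1 to 3, and 8 of the 14 were highest in replicate 2. They did not move as one. In replicate 2 Lyz2 stood at 61.7 CPM, against 7.85 to 13.1 CPM in vehicle. Adgre1, Cd68 and Mrc1 stood below the vehicle range there, Mrc1 at 0.409 CPM against 1.38 to 1.74 CPM. C1qa, C1qb, C1qc and Itgax of this list are also complement genes. The 9 stellate cell and fibroblast markers summed to 177 to 220 CPM in vehicle and to 202, 221 and 145 CPM after insB:9-23, and 1 of the 9, Dcn, was highest in replicate 2. No marker of these 4 lists was at 0 in all libraries, although Cd3d was at 0 in insB:9-23 replicate 1 and Cd8a in replicate 3. One entry of Ccl21a, a chemokine gene of lymph node stroma, was at 3.29 CPM in insB:9-23 replicate 2 and at 0 to 0.222 CPM in the other 5 libraries. Another entry of Ccl21a was at 0 in all libraries. The rest of its list, lymph node and mesothelium markers, did not move as one. Cxcl13 was at 11.9 CPM in replicate 2 and at most at 0.44 CPM elsewhere, and Wt1 at 0.48 and at most at 0.131 CPM. Msln stayed between 66.55 and 75.96 CPM, Upk3b was at 0 in replicate 2, and Krt14 was at 0 in all libraries. The summed endothelial markers stayed between 471 and 545 CPM in all 6 libraries. The summed beta cell markers, chiefly Ins1, Ins2 and Iapp, stayed between 113300 and 130800 CPM. Single markers could vary more, such as Nkx6-1 at 31.75 to 321.4 CPM and Plvap at 55.4 to 103.8 CPM. The part of these cells in the levels of the members was not tested.

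**Figure D3:**
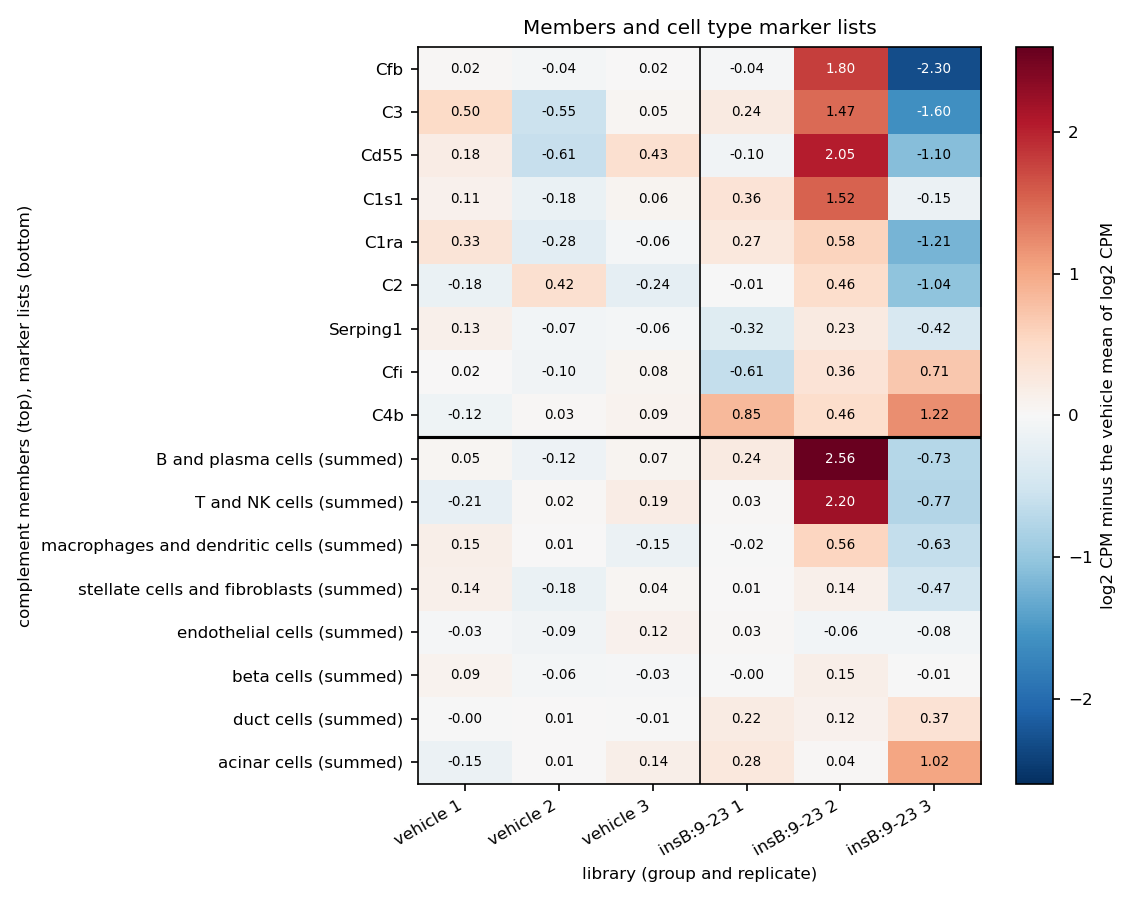
Colours and figures in the cells give log2 CPM minus the vehicle mean of log2 CPM for each library (x axis), for the 9 complement members (top rows) and the summed CPM of 8 cell type marker lists (bottom rows). The column of insB:9-23 replicate 2 is above 0 for every member and reaches 2.56 for the B and plasma cell list, and in the column of replicate 3 Cfb falls to -2.30 while C4b stands at 1.22. Cfb is drawn as counted. With the reads of Gm20547 added it stood at 0.869 times its vehicle mean in replicate 3. The margin of C4b in replicate 3 over replicate 1 depends on the scaling.

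Levels can be compared between genes only per length, as CPM per kb of annotated exon. Serping1 led in vehicle with 25.1 ± 1.99 CPM per kb, followed by C4b with 5.64 ± 0.407 and C3 with 4.56 ± 1.602 CPM per kb (SD, n = 3). C1s1 stood at 2.43 ± 0.257, C1ra at 1.44 ± 0.317 and Cfb at 1.4 ± 0.0357 CPM per kb. Cfi at 0.917 ± 0.0565, C2 at 0.902 ± 0.238 and Cd55 at 0.252 ± 0.0849 CPM per kb ended the order, so the vehicle means of the members spanned 99.8-fold. Between neighbours in this order, the vehicle ranges of C4b and C3, of C1ra and Cfb, and of Cfi and C2 overlapped, and those of the other 5 pairs did not. The inhibitor of the classical pathway was thus at a higher level per length than each protease and substrate listed, in all 3 vehicle libraries.

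**Figure D4:**
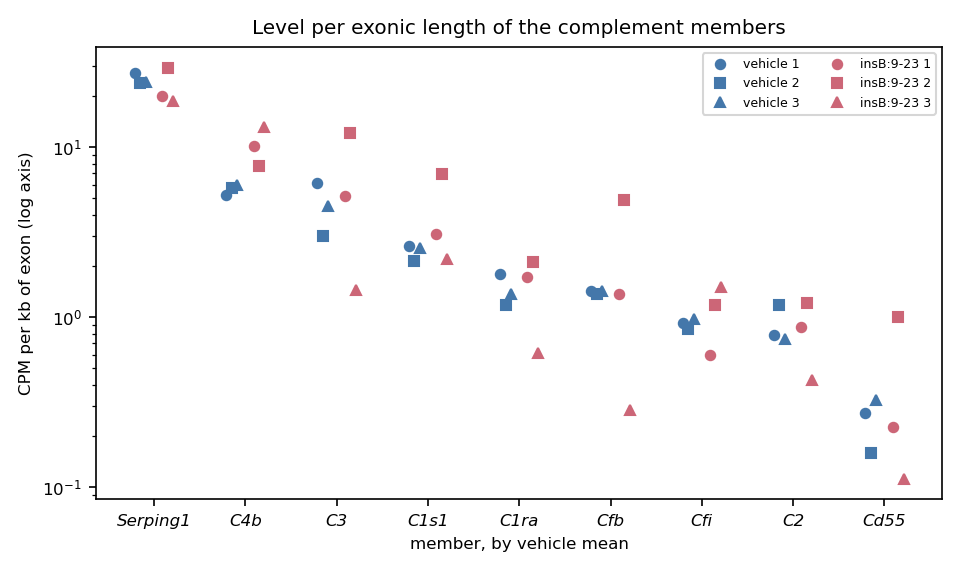
CPM per kb of annotated exon is drawn on a log axis for each member (x axis, ordered by vehicle mean), with 1 point per library. Serping1 lies highest and Cd55 lowest, with vehicle means of 25.1 and 0.252 CPM per kb, and the insB:9-23 points spread more widely than the vehicle points.

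All coordinates are on GRCm38. C4b (34728380 to 34743882), Cfb (34856374 to 34862518), C2 (34862604 to 34898265) and C3 (57203970 to 57228136) lie on chromosome 17, the first 3 of them close together in the major histocompatibility region. C1ra (124512405 to 124523443) and C1s1 (124530345 to 124542359) lie on chromosome 6, Cfi (129835884 to 129875332) on chromosome 3, Serping1 (84765387 to 84775444) on chromosome 2 and Cd55 (130439027 to 130462744) on chromosome 1. C4b and Cfb lie near each other, and the treated libraries of C4b ran from 1.38 to 2.32 times its vehicle mean and those of Cfb from 0.203 to 3.48 times, or from 0.869 times with the reads of Gm20547 added.

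Several members share sequence with other genes, so their counts depend on rules of read assignment that the labels do not state. The annotated read-through gene Gm20547 covers 79.5% of the exonic bases of Cfb and 42.8% of those of C2 on the same strand. It had 0 counts in 5 libraries and 121 counts in insB:9-23 replicate 3, where Cfb had 37 and C2 had 76. Summed, the 3 genes were at 7.05, 8.41 and 6.92 CPM in vehicle and at 7.26, 18.5 and 5.11 CPM in insB:9-23 replicates 1 to 3, so replicate 2 stayed the highest and replicate 3 the lowest, at 0.685 times the vehicle mean. Of the windows of 50 bases in the transcripts of C1ra, 48% also occur in C1rb, a near copy. C1s1 shares 21.8% of its windows with C1s2, C4b shares 34.6% with C4a, and Cd55 shares 8% with Cd55b, while C3, Cfi and Serping1 share 0 with any other gene. The near copies had few counts: C1rb was at 0.0639 to 0.924 CPM, C1s2 at 0.0374 to 0.158 CPM, and Cd55b at most at 0.0218 CPM. C4a was at 2.20, 2.01 and 2.06 CPM in vehicle and at 2.42, 2.86 and 2.62 CPM after insB:9-23 (log2 fold change 0.33 ± 0.18, SE; edgeR adjusted p = 0.881), with treated values above all vehicle values as for C4b. The values of C4b, C1ra and C1s1 are uncertain to the extent that their reads could be split with these copies.

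C3, C1s1, C1ra and Cd55 shared their highest library, and for those 3 whose RefSeq start is also the annotated start (C3, C1s1 and Cd55) the 250 bases before their start sites are shown for comparison, from RefSeq on GRCm38.p6, 5′ to 3′ on the strand of the gene. The RefSeq table matched these 4 of the 9 members. The window of C1ra, which lies partly inside the annotated gene, is not shown and held none of the motifs below. Capitals mark matches to 5 motifs searched on both strands: C/EBP (TTGCNNAA), GAS (TTCNNNGAA), an ISRE core (GAAANNGAA), a kappaB core (GGGNNTTTC) and the TATA box (letters TATAAA). The C3 window is chr17:57228137-57228386, the C1s1 window chr6:124542360-124542609 and the Cd55 window chr1:130462745-130462994, each on the minus strand.
C3: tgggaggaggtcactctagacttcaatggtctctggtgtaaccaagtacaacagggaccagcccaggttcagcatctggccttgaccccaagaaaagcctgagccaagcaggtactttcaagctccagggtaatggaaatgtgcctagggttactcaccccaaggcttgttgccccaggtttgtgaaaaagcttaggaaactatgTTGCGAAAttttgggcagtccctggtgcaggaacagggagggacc
C1s1: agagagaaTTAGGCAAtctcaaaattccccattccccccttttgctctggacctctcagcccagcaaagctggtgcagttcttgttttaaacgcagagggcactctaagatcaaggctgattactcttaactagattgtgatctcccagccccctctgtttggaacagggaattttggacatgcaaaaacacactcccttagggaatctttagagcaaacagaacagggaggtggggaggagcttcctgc
Cd55: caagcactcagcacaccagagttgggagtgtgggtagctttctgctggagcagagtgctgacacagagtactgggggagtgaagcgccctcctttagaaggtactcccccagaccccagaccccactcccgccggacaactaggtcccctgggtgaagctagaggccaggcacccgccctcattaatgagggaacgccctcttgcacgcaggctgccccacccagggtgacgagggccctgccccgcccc

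C/EBP was the only one of these motifs with a match in the windows shown. In C3 the match, TTGCGAAA, ended 38 bases before the start site, and in C1s1 the match, TTAGGCAA, ended 235 bases before it. RefSeq also gives C1s1 a start at 124542321, and the window before that start held no C/EBP match. The Cd55 window held none of the 5. Of 32851 windows of the same length in the table, 9.56% held the C/EBP letters, 7.02% the GAS, 7.13% the ISRE core, 3.72% the kappaB core and 12.4% the TATA letters. A match is a description of letters, and nothing on binding was measured.

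By likeness over the 6 libraries, the genes closest to C3 among 10271 candidates with a mean of at least 5 CPM were Dcn, Ptprc and Cfb. The measure was the root mean square distance of centred log2 CPM, which was 0.33 for Dcn, 0.41 for Ptprc and 0.41 for Cfb. Cfb entered as counted, without the reads of Gm20547. With those reads it stood at 0.869 times its vehicle mean in insB:9-23 replicate 3, where C3 stood at 0.315 times its own. The distance of Cfb from C3 with those reads was not computed. Dcn, which encodes the matrix proteoglycan decorin of fibroblasts, was at 12.6, 5.53 and 11.2 CPM in vehicle and at 13.1, 25.6 and 5.46 CPM after insB:9-23. Ptprc, which encodes the pan-leukocyte protein CD45, was at 10.7, 10.9 and 10 CPM in vehicle and at 9.65, 33.8 and 4.998 CPM after insB:9-23. Both were thus highest in insB:9-23 replicate 2 and lowest in replicate 3, as was C3. Dcn is not representative of its marker list, of which the other members were not highest in replicate 2: Col1a1 was at 6.57 CPM there, against 7.05 to 15.1 CPM in vehicle, and Lum, Pdgfrb and Rgs5 stood within the vehicle range. The genes closest to C4b were Gm45774 (distance 0.07), Mt2 (0.09) and Gnmt (0.11). Mt2, a metallothionein gene, was at 53.8, 59.8 and 59.5 CPM in vehicle and at 88.4, 73.7 and 130.2 CPM after insB:9-23, highest in replicate 3 as C4b was. Gnmt, encoding glycine N-methyltransferase, was at 10.1 to 10.3 CPM in vehicle and at 16.0, 12.5 and 21.2 CPM after insB:9-23. Gm45774 is annotated antisense to Mt2, and since the strand setting of the counting is not given, their reads cannot be told apart.

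Beyond the members, 52 other complement genes were listed, of which 32 entered the test and 0 passed it in either direction. At an unadjusted p below 0.05, 2 of the 32 were higher (Clu and Cd59a) and 0 lower, against 5.55% of all genes in either direction. Their median log2 fold change was 0.10, and 19 of 32 lay above 0. Treated values stood wholly above vehicle values for 3 of the 32 (Colec12, C4a and Clu) and wholly below for 1 (Cd59b), where all genes had 6.44% above and 7.03% below. Fcnb, Colec10, C8a and C9 had 0 counts in all libraries as listed. If sampling alone gave these zeros, they allow up to 0.0474 to 0.0655 CPM (3 counts) depending on the library. That bound does not cover zeros that arise in read assignment, whose part was not tested. Among these genes insB:9-23 replicate 2 was the highest library for 12 of the 32 (37.5%), against 7 of 9 members and 19.2% of all genes.

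Among recognition molecules and their proteases, 8 of 15 were tested and 7 had a log2 fold change above 0. The C1q chains, made chiefly by macrophages, showed no shared order of libraries. C1qa was at 17.3, 46.2 and 43.7 CPM in vehicle and at 48.1, 53.5 and 34.9 CPM after insB:9-23 (log2 fold change 0.35 ± 0.40, SE; edgeR adjusted p = 0.924). C1qb was at 13.7, 11.8 and 14.4 CPM in vehicle and at 14.2, 15.1 and 8.82 CPM after insB:9-23, highest in replicate 2 and lowest in replicate 3 as C3 was, but within 1.71-fold. C1qc was at 9.39, 3.74 and 10.9 CPM in vehicle and at 10.7, 5.13 and 8.51 CPM after insB:9-23, and was highest in vehicle replicate 3. C1rl, a C1r-like protease gene, was at 6.68 ± 0.69 and 7.79 ± 1.43 CPM (SD, n = 3 each). Colec12, a scavenger receptor with a collectin domain, was at 1.23, 1.02 and 1.31 CPM in vehicle and at 1.47, 3.41 and 1.59 CPM after insB:9-23 (edgeR adjusted p = 0.881).

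Of the other components, 5 of 10 were tested. C8b, a chain of the terminal attack complex, was at 43.0 ± 4.23 and 44.6 ± 5.57 CPM (SD, n = 3 each; edgeR adjusted p = 0.967), although C8a and C9 of the same complex had no counts. Hc, the mouse C5 gene, had 0 counts in 5 libraries and stood at 0.0873 CPM in insB:9-23 replicate 3. Cfd, encoding factor D, which activates factor B, was at 0 in 4 libraries and at most at 0.29 CPM.

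The inhibitors and regulators, 11 tested of 17, had a median log2 fold change of -0.03, and 5 of them were above 0. Clu, encoding clusterin, which binds terminal complement complexes, was at 329, 376 and 394 CPM in vehicle and at 462.5, 422 and 577 CPM after insB:9-23, without overlap (log2 fold change 0.41 ± 0.14, SE; edgeR adjusted p = 0.881). Its treated libraries ranked as those of C4b did, with replicate 3 highest and replicate 2 lowest. Vtn, encoding vitronectin, showed the same ranking at 30.6, 24.1 and 37.6 CPM, against 19.3 to 24.6 CPM in vehicle (edgeR adjusted p = 0.881). The summed acinar markers ranked the treated libraries in this order too, and their part was not tested. Replicate 3 had a TMM factor of 0.806, against 1.004 to 1.083 in the other libraries, which raises its CPM. In counts Vtn had 1794 in replicate 1 and 1721 in replicate 3, and Clu had 27134 and 26429. The total counts of these 2 libraries were 58445046 and 56868559. The place of replicate 3 above replicate 1 thus depends on the scaling for Vtn, and its margin does for Clu, as for C4b. Cr1l, which encodes the rodent C3 regulator Crry, hardly varied, at 39.9 ± 1.12 and 39.0 ± 0.357 CPM (SD, n = 3 each; log2 fold change -0.03 ± 0.07, SE; edgeR adjusted p = 0.958).

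Cd59a, which encodes a membrane inhibitor of the attack complex, was at 2.69, 2.24 and 2.82 CPM in vehicle and at 10.2, 10.7 and 2.27 CPM after insB:9-23. Replicates 1 and 2 stood well above the vehicle range and replicate 3 within it (log2 fold change 1.58 ± 0.58, SE; edgeR adjusted p = 0.881). Its near relative Cd59b was at 1.28, 1.20 and 0.692 CPM in vehicle and at 0.665, 0.675 and 0.567 CPM after insB:9-23 (log2 fold change -0.73 ± 0.35, SE; edgeR adjusted p = 0.881). Cpn1, a carboxypeptidase that inactivates anaphylatoxins, was at 68.0 ± 6.76 and 66.2 ± 6.45 CPM (edgeR adjusted p = 0.972).

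Of the receptors, 8 of 10 were tested, with a median log2 fold change of -0.10. C3ar1, the receptor for the C3a fragment, was at 2.17 ± 0.128 CPM in vehicle and 1.83 ± 0.299 CPM after insB:9-23 (SD, n = 3 each; edgeR adjusted p = 0.902). Cd93, once described as a C1q receptor and present on endothelium, was at 17.6 to 19.5 CPM in vehicle and at 18.8, 1.88 and 22.2 CPM after insB:9-23, so here replicate 2 was the low library (edgeR adjusted p = 0.958). C1qbp, which binds the globular heads of C1q, was at 18.4 ± 2.43 and 15.5 ± 4.93 CPM (SD, n = 3 each; edgeR adjusted p = 0.908).

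**Figure D5:**
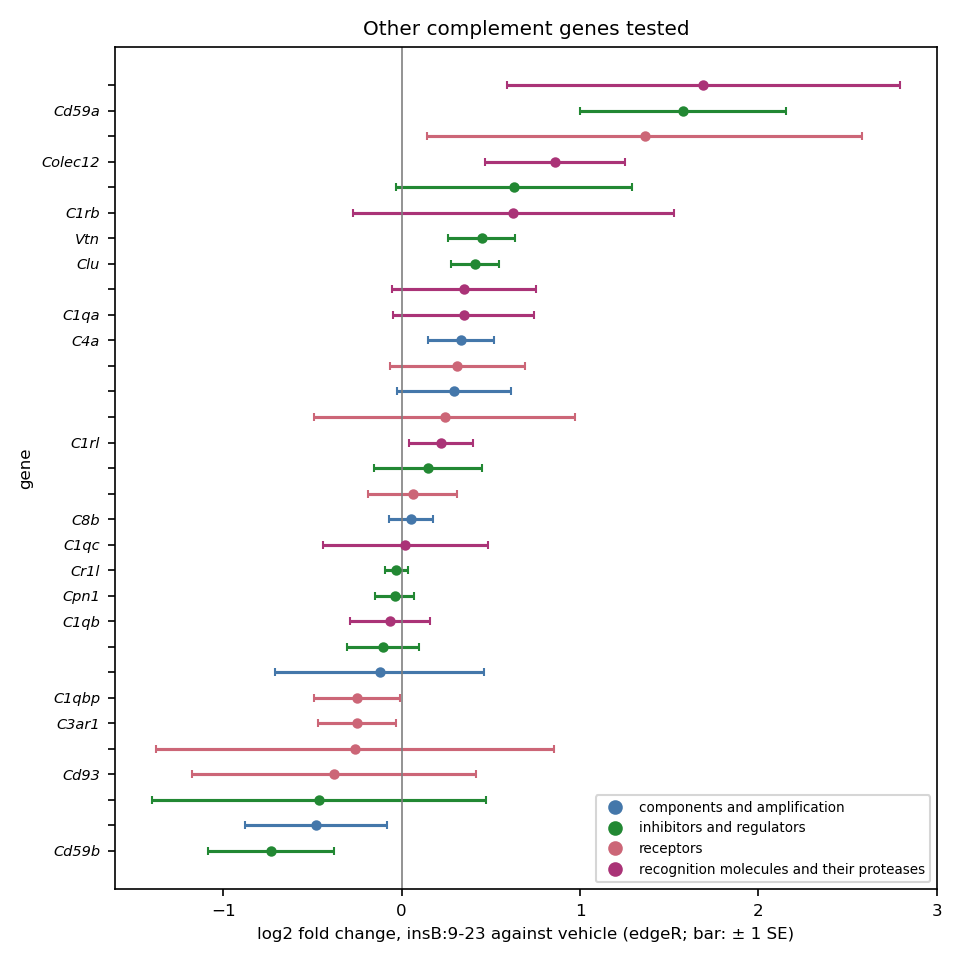
The x axis gives the edgeR log2 fold change with its SE for other complement genes that were tested (y axis), coloured by role, with the genes described in the text labelled. None passed an adjusted p of 0.05, and Cd59a at 1.58 and Cd59b at -0.73 lie to either side of 0.

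Interferon and acute-phase signals are known inducers of C3, Cfb, C4b and the C1 proteases. Of 23 listed genes of these responses 20 were tested and 0 passed with edgeR, while DESeq2 called 1 (Socs3), against 0.685% of all genes. At an unadjusted p below 0.05 edgeR had 1 of 20 higher, again Socs3, and 0 lower, against 5.55% of all genes in either direction. In this list 10 of the 20 had a log2 fold change above 0, and the median was 0.01. Socs3, a feedback inhibitor of cytokine receptors, was at 23.2, 20.97 and 22.5 CPM in vehicle and at 33.0, 30.2 and 37.4 CPM after insB:9-23 (log2 fold change 0.59 ± 0.10, SE; edgeR adjusted p = 0.384; DESeq2 adjusted p = 0.00238). Irf1, an interferon-induced transcription factor, was at 38.9, 25.4 and 35.3 CPM in vehicle and at 41.5, 52.1 and 41.0 CPM after insB:9-23 (edgeR adjusted p = 0.881). These 2 genes were the ones of that list without overlap between the groups, where 6.44% of all genes stood wholly above vehicle, and were named after their values were seen.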

How the data were processed

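Each deposited table holds whole-number read counts for Ensembl gene IDs in 1 library, without normalisation. Per the submitters' processing notes the tools were HISAT, featureCounts 1.5.0-p3 and DESeq 1.8.3 and the build was GRCm38, with no step named for any. The kit was stranded, per the labels' protocols; the annotation release and the strand setting of the counting are not given in the sources. Symbols, exon lengths and positions came from GENCODE M21 on the same build and were found for 55240 of 55421 genes.

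Sample titles gave the groups and replicate numbers. The test was edgeR 4.0.16 under R 4.3.3 (filterByExpr, TMM scaling, robust quasi-likelihood F test), with Benjamini-Hochberg adjustment over 17016 genes. An SE is the log2 fold change over the square root of F. Log2 CPM uses a prior count of 2. Alternatives were DESeq2 1.42.0, limma-voom (limma 3.58.1), other scalings and filters, an acinar covariate, a replicate block, each library left out and, added after the data were seen, insB:9-23 replicate 1 alone and the reads of Gm20547 given to Cfb or to C2. Libraries of a group differed by 80.0 to 247.1 chi-square units per degree of freedom, so none repeats another.

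The members and lists were chosen with earlier results of these data known. Named genes were the 9 members and, of the other complement genes, those without overlap between groups, the 8 most abundant and a fixed set with the members' near copies, plus the 3 genes most like C3 and C4b. Ccl21a, Cxcl13, Wt1, Msln, Upk3b, Krt14, Socs3, Irf1, Cebpd, Ifit1, Col1a1, Lum, Pdgfrb, Rgs5, Lyz2, Adgre1, Cd68, Mrc1, Nkx6-1 and Plvap were named after their values were seen. Some listed genes are not reported here.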

Additional observations from a re-analysis of the deposited data

How the results depend on the processing

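Over all genes, edgeR called 14. The count was 116 with DESeq2, 0 with the replicate block, 7 with acinar marker level as covariate, 16 to 26 with 1 library left out, and 70 with insB:9-23 replicate 1 alone, which was added after the data were seen and assumes that this library varies as the vehicle libraries do. Of the members, 0 were called under each alternative except DESeq2, which called 1 (C4b), and of the other complement genes 0 were called under all of them. The members' median log2 fold change lay between -0.37 (without insB:9-23 replicate 2) and 0.67 with 1 library left out, was 0.00 with the replicate block, and was 0.67 with the acinar covariate, where 8 of 9 members lay above 0. The labels do not say whether replicate numbers pair the libraries. Same-numbered libraries had correlations of -0.04, -0.06 and -0.03 between their deviations from the group means, and the other pairs had -0.03 to 0.07. With 3 libraries a group these values do not decide whether the libraries are paired. Library totals alone moved the median of all genes to -0.15 and that of the members to 0.38, with 6 of 9 members above 0.

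No sign that changed belonged to a called member. C1ra was at -0.051 by library totals alone, Cfb and C1ra both at -0.067 with limma-voom, and Cfb at -0.13 and C1ra at -0.11 with the replicate block. With the acinar covariate C2 was at 0.38, Cfi at -0.031 and Serping1 at 0.082. With the reads of Gm20547 added, C2 was at 0.24. With insB:9-23 replicate 1 alone Cfb was at -0.039, Cfi at -0.62 and Cd55 at -0.17. With 1 library left out the ranges were -0.31 to 0.41 for C1ra, -0.47 to 0.21 for C2, -0.47 to 0.92 for C3, -0.57 to 1.28 for Cd55, -0.76 to 1.16 for Cfb and -0.045 to 0.54 for Cfi, while C4b (0.67 to 1.04), C1s1 (0.12 to 1.051) and Serping1 (-0.37 to -0.02) kept their signs. Without insB:9-23 replicate 2, C3, Cfb, Cd55 and C1ra turned below 0. The cause was not tested.

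Each group had 3 libraries, and the SD of log2 CPM was larger in the insB:9-23 group for 9 of 9 members as counted. That count can depend on read assignment. With the reads of Gm20547 given to C2, its treated libraries were at 3.39, 4.69 and 4.30 CPM, against 3.02, 4.56 and 2.90 CPM in vehicle. The SD with those reads was not computed. The lowest count of any member in any library was 25 (Cd55). The parts of counting error and of read assignment in this spread were not tested.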
